A study of Homo sapiens with 4 samples.

Results

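The receptors described here are G protein-coupled receptors of the cell surface that respond to chemoattractants, to lipid mediators or to proteases such as thrombin. A list of 10 genes was followed, and 8 of them had a probe set annotated to a single gene, among 18417 such genes on the arrays. The 8 are CMKLR1, CXCR4, PTGER2, PTGER4, LPAR1, S1PR1, F2R and F2RL2. For S1PR3 the only probe set was listed under 2 names and is given apart, and F2RL1 was not analysed here. Gene expression was measured on Affymetrix arrays in 4 groups of 1 array each: MDA-MB231 cells expressing FBP1, MDA-MB231 control cells, Hs578T cells expressing FBP1 and Hs578T control cells. Both are established human cell lines, labelled as basal-like breast cancer, and all groups were grown in serum-containing medium and harvested in logarithmic growth. FBP1 encodes the gluconeogenic enzyme fructose-1,6-bisphosphatase. The FBP1 cells were stable clones; the sources used here do not give how many clones each array represents or what the control cells carry. The 10 genes were chosen with the levels on the 4 arrays, the line difference and the changes with FBP1 already known, so all their values below are a description and carry no test.

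Chemoattractant receptors guide cell movement towards a source of ligand and mostly signal through inhibitory G proteins. CXCR4 binds the chemokine CXCL12 and is known for its part in the migration and spread of breast cancer cells, while CMKLR1 binds chemerin, the product of RARRES2. PTGER2 and PTGER4 are receptors of prostaglandin E2 and raise cAMP. LPAR1 responds to lysophosphatidic acid, and S1PR1 and S1PR3 to sphingosine-1-phosphate, all of them lipids present in serum. F2R, the main thrombin receptor, is activated when a protease cuts its outer end and exposes a tethered ligand, F2RL1 is cut by trypsin-like proteases, and F2RL2 is a further thrombin target that in mouse platelets acts as a cofactor for another family member.

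Values are log2 expression values per probe set, as the authors deposited them, so a difference of 1 is 2-fold. Array medians lay between 7.83 and 7.86, and having only 4 arrays limits how precisely any value is known. FBP1, measured to check the labels, was 13.07 in MDA-MB231 with FBP1, against 9.83 in the MDA-MB231 control, and 13.35 in Hs578T with FBP1, against 6.35 in the Hs578T control. Of the basal-like and mesenchymal markers, EGFR lay between 10.63 and 11.05 and VIM between 13.71 and 13.72 on the 4 arrays, KRT5 between 6.80 and 6.93 (KRT17 and FOXC1 were not analysed here), and the luminal marker ESR1 between 6.64 and 6.80. CDH2, or N-cadherin, from the same basal-like and mesenchymal list, had 7.71 in MDA-MB231 with FBP1 and 7.38 in its control, against 13.20 in Hs578T with FBP1 and 13.13 in its control. The files hold no detection calls, so absence of a transcript could not be called. The deposited values are of bulk RNA, in which fewer cells of a type and less RNA per cell cannot be told apart. With 1 FBP1 array per line, FBP1 expression, the selection of clones and the array itself cannot be told apart either.

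The regions before the transcription start are shown for the 5 genes whose values the results turn on, namely the 4 that were at least 1.5-fold higher with FBP1 in Hs578T and CXCR4, which lay just under that size. Each sequence is the 250 bases before the most upstream RefSeq start, 5′ to 3′ on the strand of the gene, in build GRCh38.p14. They lie at chr12:108320643-108320892 (minus strand) for CMKLR1, chr5:40679665-40679914 (plus) for PTGER4, chr9:111038999-111039248 (minus) for LPAR1, chr2:136118150-136118399 (minus) for CXCR4 and chr5:76623404-76623653 (minus) for F2RL2. Capitals mark matches, on either strand, to the 6 motifs that were searched.
CMKLR1: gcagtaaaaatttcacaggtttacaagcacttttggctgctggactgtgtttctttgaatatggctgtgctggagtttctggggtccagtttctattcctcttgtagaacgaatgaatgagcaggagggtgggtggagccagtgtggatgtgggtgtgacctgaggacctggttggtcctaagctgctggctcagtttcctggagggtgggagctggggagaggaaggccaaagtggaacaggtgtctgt
PTGER4: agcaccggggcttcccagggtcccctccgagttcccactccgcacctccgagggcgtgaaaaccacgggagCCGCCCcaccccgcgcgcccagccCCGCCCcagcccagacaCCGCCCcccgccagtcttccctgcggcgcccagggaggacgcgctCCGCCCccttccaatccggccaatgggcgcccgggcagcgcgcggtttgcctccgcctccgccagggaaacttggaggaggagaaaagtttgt
LPAR1: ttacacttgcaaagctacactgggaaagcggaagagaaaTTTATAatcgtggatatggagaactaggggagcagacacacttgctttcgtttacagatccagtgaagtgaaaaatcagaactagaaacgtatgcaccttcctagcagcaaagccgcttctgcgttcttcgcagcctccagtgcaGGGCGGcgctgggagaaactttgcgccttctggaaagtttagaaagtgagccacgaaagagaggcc
CXCR4: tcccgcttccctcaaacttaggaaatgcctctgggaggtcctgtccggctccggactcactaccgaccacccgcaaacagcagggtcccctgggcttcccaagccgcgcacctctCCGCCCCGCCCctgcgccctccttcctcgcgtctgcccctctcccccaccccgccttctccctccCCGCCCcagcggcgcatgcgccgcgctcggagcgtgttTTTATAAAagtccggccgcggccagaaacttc
F2RL2: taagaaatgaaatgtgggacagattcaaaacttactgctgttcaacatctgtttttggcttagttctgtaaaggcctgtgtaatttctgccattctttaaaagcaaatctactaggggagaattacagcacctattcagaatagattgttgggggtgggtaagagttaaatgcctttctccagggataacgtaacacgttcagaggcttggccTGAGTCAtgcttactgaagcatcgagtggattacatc

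The motifs were the GC box GGGCGG, the TATA box TATAAA, the AP-1 site TGANTCA, the core of the cAMP response element TGACG, the E-box CACGTG and the NF-kB site, GGGNN followed directly by TTTCC. A GC box was found before 5 of the 9 listed genes that had a promoter entry (CXCR4, PTGER2, PTGER4, LPAR1 and F2RL1), against 42.2% of 27305 promoters of the same length. PTGER4 held 4 copies and CXCR4 3, of which 2 overlap, whereas CMKLR1 held no match to any of the 6 motifs. F2RL2 held the only AP-1 match (6.57% of promoters), CXCR4 and LPAR1 the TATA matches (11.2%), and PTGER2 the only match to TGACG (21.6%). In CXCR4 the TATA match is read on both strands, because its letters overlap their reverse complement. No member matched the E-box (6.46% of promoters) or the NF-kB site (1.74%). The ratio of observed to expected CpG was 0.07 for CMKLR1 and 0.30 for F2RL2, against 0.82 for PTGER4, 0.76 for LPAR1, 0.95 for CXCR4 and a median of 0.55 over all promoters. The 4 genes that were at least 1.5-fold higher in Hs578T with FBP1 thus lay on both sides of that median. Letter matches describe these windows only.

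In Hs578T, FBP1-expressing cells had higher values than control cells for each of the 8 receptor genes, and 4 of the 8 were at least 1.5-fold higher: CMKLR1, PTGER4, LPAR1 and F2RL2. Over all 18417 genes, 1.40% were at least 1.5-fold higher in this comparison, 2.97% were changed by 1.5-fold in either direction and 55.8% lay above 0. In MDA-MB231, 7 of the 8 were above control, but 0 of the 8 reached 1.5-fold, which 0.353% of all genes did, with 0.690% changed in either direction and 48.6% above 0. The median log2 change of the 8 was 0.62 in Hs578T and 0.13 in MDA-MB231, beside medians over all genes of 0.03 and −0.004. Because the genes were picked on these changes, the counts describe the choice as much as the cells.

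**Figure D1:**
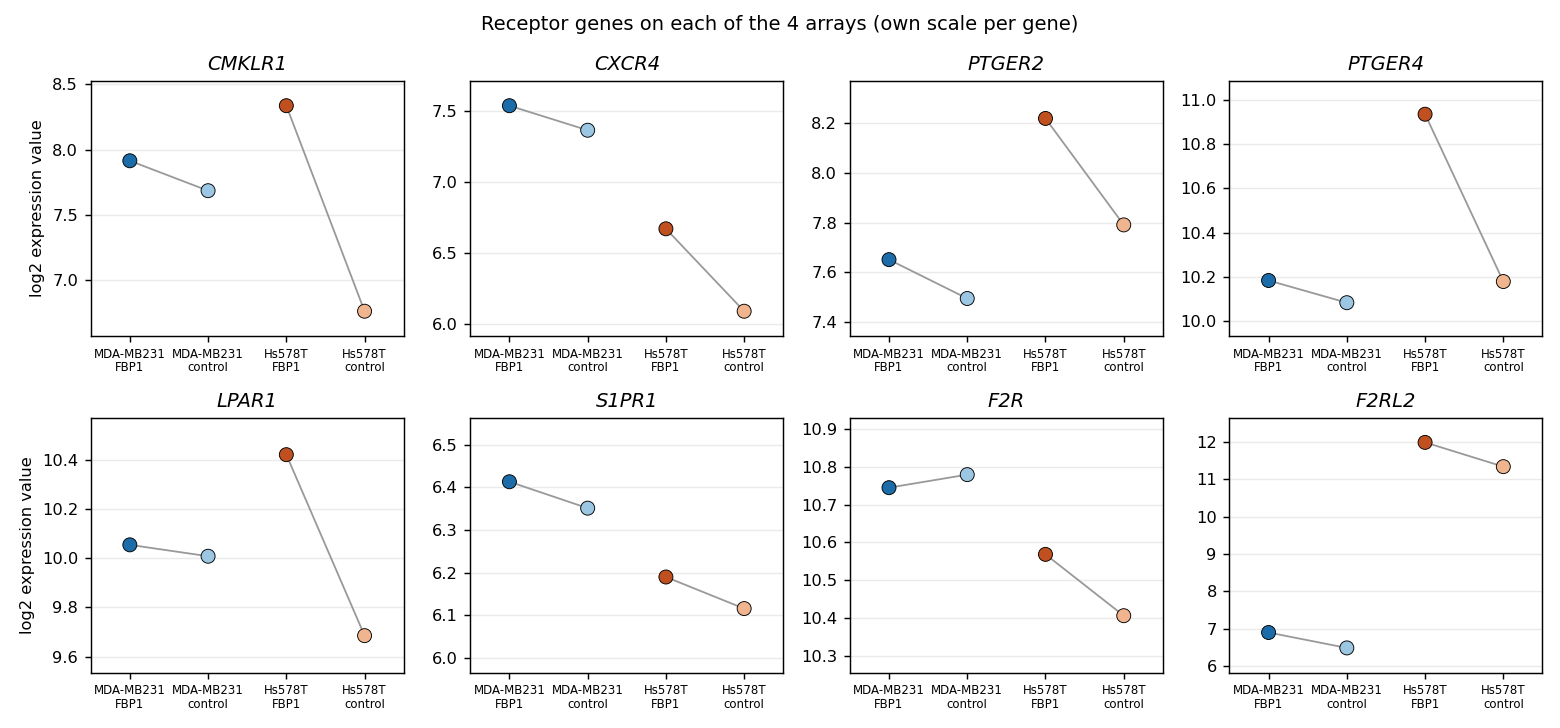
Log2 expression values (vertical axis, own scale for each gene) of the 8 receptor genes on the 4 arrays, with FBP1 and control cells of each line joined by a grey line; each point is 1 array. CMKLR1, PTGER2, PTGER4, LPAR1 and F2RL2 were highest on the Hs578T FBP1 array. F2RL2 lay above 11 on both Hs578T arrays and below 7 on both MDA-MB231 arrays.

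Among the chemoattractant receptors, CMKLR1 had the largest change with FBP1 of the 8 genes. Its log2 value was 7.91 in MDA-MB231 with FBP1, against 7.68 in the MDA-MB231 control, and 8.34 in Hs578T with FBP1, against 6.76 in the Hs578T control. The increase was thus 1.58 in Hs578T, or 2.98-fold, and 0.23 in MDA-MB231, and CMKLR1 was the single member at least 2-fold higher with FBP1 in Hs578T, as were 0.271% of all genes. In Hs578T 3 of all genes, FBP1 itself among them, had a larger increase, whereas in MDA-MB231 1260 did. From high to low the arrays ran Hs578T with FBP1, MDA-MB231 with FBP1, MDA-MB231 control and Hs578T control. The order of the lines therefore differed between the FBP1 arrays, where MDA-MB231 minus Hs578T was −0.42, and the control arrays, where it was 0.92.

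CXCR4 was higher in MDA-MB231 than in Hs578T on both kinds of array, and higher with FBP1 than in control cells of both lines. Its value was 7.54 in MDA-MB231 with FBP1, against 7.37 in the MDA-MB231 control, and 6.67 in Hs578T with FBP1, against 6.09 in the Hs578T control. The arrays of the lines did not overlap. With a change of 0.17 in MDA-MB231 and 0.583 in Hs578T, CXCR4 lay just outside the 1.5-fold limit of 0.585, and F2RL2 at 0.65 was the nearest gene inside it. The Hs578T control value lay under 6.16, the 25th percentile over probe sets of their mean and the limit of the filter on dim genes. MDA-MB231 minus Hs578T was 0.87 for the FBP1 arrays and 1.28 for the control arrays, a mean of 1.08 or 2.11-fold. CXCR4 was the single member at least 2-fold higher in MDA-MB231, as were 4.85% of all genes. Luminal markers ran the same way in part: 4 of 10 were at least 2-fold higher in MDA-MB231 and 0 at least 2-fold lower. GATA3, ERBB2 and KRT18 were higher by 0.82, 0.31 and 0.10, whereas PGR, FOXA1 and ESR1 ran the other way, by −0.58, −0.33 and −0.07. The log2 of the summed linear values of the 10 was 14.37 and 14.44 in MDA-MB231 with FBP1 and control. In Hs578T with FBP1 and control it was 13.18 and 12.89. The brightest markers weigh most in such a sum. The part of these markers in the CXCR4 difference was not tested.

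The prostaglandin E2 receptors PTGER2 and PTGER4 each had their highest value in Hs578T with FBP1. PTGER4 stood at 10.18 in MDA-MB231 with FBP1, against 10.08 in the MDA-MB231 control, and at 10.93 in Hs578T with FBP1, against 10.18 in the Hs578T control. Its change was 0.76 in Hs578T (1.69-fold) and 0.10 in MDA-MB231, so that the 3 other arrays spanned 0.10 and the Hs578T FBP1 array stood above them. PTGER2 had 7.65 in MDA-MB231 with FBP1, against 7.496 in the MDA-MB231 control, and 8.22 in Hs578T with FBP1, against 7.79 in the Hs578T control. Both Hs578T arrays were above both MDA-MB231 arrays for PTGER2, with line differences of −0.57 for the FBP1 arrays and −0.30 for the control arrays. Its change was 0.43 in Hs578T and 0.16 in MDA-MB231, under 1.5-fold in each.

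For LPAR1 the MDA-MB231 arrays lay between the Hs578T arrays. Its value was 10.05 in MDA-MB231 with FBP1, against 10.01 in the MDA-MB231 control, and 10.42 in Hs578T with FBP1, against 9.69 in the Hs578T control. The change was 0.73 in Hs578T (1.66-fold) and 0.05 in MDA-MB231. The mean line difference was −0.02.

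S1PR1, which in lymphocytes steers exit from lymphoid organs, was dim on all arrays. Its values were 6.41 in MDA-MB231 with FBP1, against 6.35 in the MDA-MB231 control, and 6.19 in Hs578T with FBP1, against 6.12 in the Hs578T control. The changes were 0.06 and 0.07, the 4 arrays spanned 0.30, and both MDA-MB231 arrays lay above both Hs578T arrays. S1PR3 was read from a probe set listed to S1PR3 and C9orf47, a name that RefSeq now gives as an older name of S1PR3; this reading was added after the data were seen and is not in the counts of 8. It gave 8.78 in MDA-MB231 with FBP1, against 8.64 in the MDA-MB231 control, and 9.67 in Hs578T with FBP1, against 9.65 in the Hs578T control. MDA-MB231 minus Hs578T was −0.88 with FBP1 and −1.01 in control cells, a mean of 1.93-fold lower in MDA-MB231, and the changes with FBP1 were 0.14 in MDA-MB231 and 0.02 in Hs578T.

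**Figure D2:**
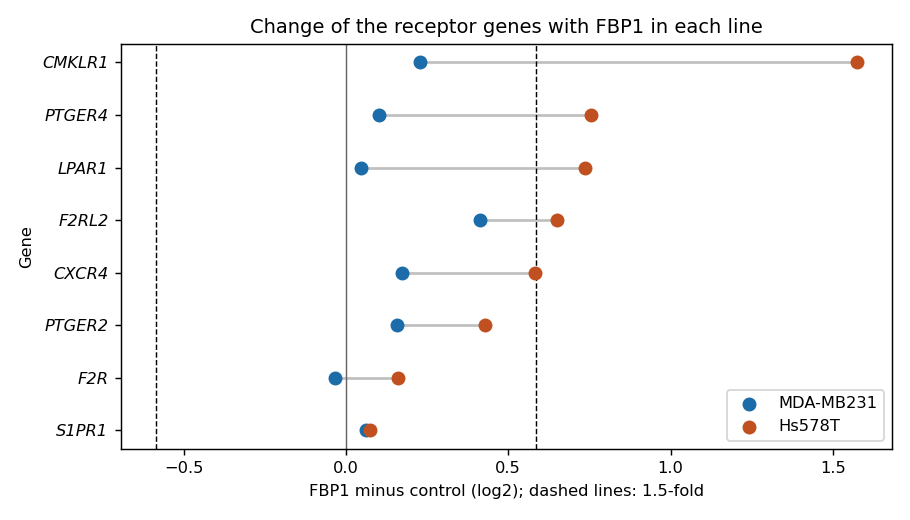
FBP1 minus control on the log2 scale (horizontal axis) for the 8 receptor genes in MDA-MB231 (blue) and Hs578T (orange), with dashed lines at 1.5-fold; each point is the difference of 2 arrays. CMKLR1, PTGER4, LPAR1 and F2RL2 lie beyond 1.5-fold in Hs578T, CXCR4 lies on its edge, and 0 genes do so in MDA-MB231.

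Of the thrombin receptors, F2RL2 was far lower in MDA-MB231 than in Hs578T and F2R slightly higher. F2R had 10.74 in MDA-MB231 with FBP1, against 10.78 in the MDA-MB231 control, and 10.57 in Hs578T with FBP1, against 10.41 in the Hs578T control. It changed by −0.03 in MDA-MB231 and by 0.16 in Hs578T, and its 4 arrays spanned 0.37. F2RL2 had 6.90 in MDA-MB231 with FBP1, against 6.49 in the MDA-MB231 control, and 11.99 in Hs578T with FBP1, against 11.34 in the Hs578T control. MDA-MB231 minus Hs578T was −5.09 with FBP1 and −4.85 in control cells, a mean of 31.3-fold lower in MDA-MB231. The MDA-MB231 values lie near 6.16 and no background signal is given, so this fold is a ratio of deposited values whose size is uncertain. F2RL2 was the single member at least 2-fold lower in MDA-MB231, as were 4.88% of genes. With FBP1 it was 0.65 above control in Hs578T (1.57-fold) and 0.41 in MDA-MB231, the largest of the 8 changes in that line. Markers of fibroblasts ran the same way between the lines, with 7 of 7 at least 2-fold lower in MDA-MB231. The log2 of their summed linear values was 10.14 and 10.16 in MDA-MB231 with FBP1 and control. In Hs578T with FBP1 and control it was 14.11 and 14.15. CDH2 ran the same way, with a line difference of −5.62. The part of these markers in the F2RL2 difference was not tested.

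F2R, F2RL1 and F2RL2 are neighbours on chromosome 5, and in RefSeq F2RL2 lies inside the gene IQGAP2, which encodes a scaffold protein that binds actin regulators. IQGAP2 ran opposite to F2RL2, with 7.70 in MDA-MB231 with FBP1 and 7.38 in the MDA-MB231 control, against 6.02 in Hs578T with FBP1 and 5.95 in the Hs578T control. Its line difference was 1.56 (standard error 0.12, limma adjusted p = 0.000213, by Benjamini-Hochberg over all genes). Both Hs578T values of IQGAP2 lie under the filter limit of 6.16 for dim genes, so the size of this difference is uncertain. IQGAP2 was looked up after the F2RL2 values were seen.

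The gene with the values most like F2RL2 over the 4 arrays, by Euclidean distance after each gene's mean was taken off, was PART1, at a distance of 0.12. CCL2 followed at 0.36 and MYOCD at 0.43, and 6 genes in all lay within 0.5. For CMKLR1 the nearest genes were FGF1 (0.25), CCBE1 (0.40) and KCNK2 (0.42), of 7 within 0.5. FGF1 had 8.43 in MDA-MB231 with FBP1, against 8.02 in the MDA-MB231 control, and 8.57 in Hs578T with FBP1, against 7.30 in the Hs578T control. Within 0.5 of CXCR4 lay 619 genes, led by EDARADD, LAIR1 and TOP6BL, and within 0.5 of PTGER4 1466, led by TGFB1I1, VWA5A and ALDH1A3. The distance is not scaled to the range of a gene, so counts for genes of unlike range cannot be compared. The 4 arrays spanned 5.50 for F2RL2, 1.58 for CMKLR1, 1.45 for CXCR4 and 0.85 for PTGER4.

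Around the receptors, 9 lists of ligand-producing enzymes, ligands, related receptors, G proteins, regulators and targets held 193 genes, of which 181 were measured. Between the lines, the limma fit over both lines and all genes called 36 of the 181 higher (19.9%) and 39 lower (21.5%) in MDA-MB231 at an adjusted p of 0.05, against 19.0% and 16.9% of all genes. Together 41.4% of the listed genes were called, against 36.0% of all genes. The counts given below for single lists are to be read beside the same shares of all genes. For FBP1 against control over both lines limma called 0 of 18417 genes, with 966 at an unadjusted p under 0.05 and 0 also without the intensity trend of the variance prior. FBP1 itself was not called, so the 0 calls do not show that other genes did not change. By size alone, 5 of the 181 were at least 1.5-fold higher and 4 lower with FBP1 in Hs578T (1.40% and 1.57% of all genes), and 0 higher and 1 lower in MDA-MB231 (0.353% and 0.337%). Error terms of this fit rest on 1 residual degree of freedom and measure how far the lines and constructs depart from additivity, not the spread of repeated cultures.

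**Figure D3:**
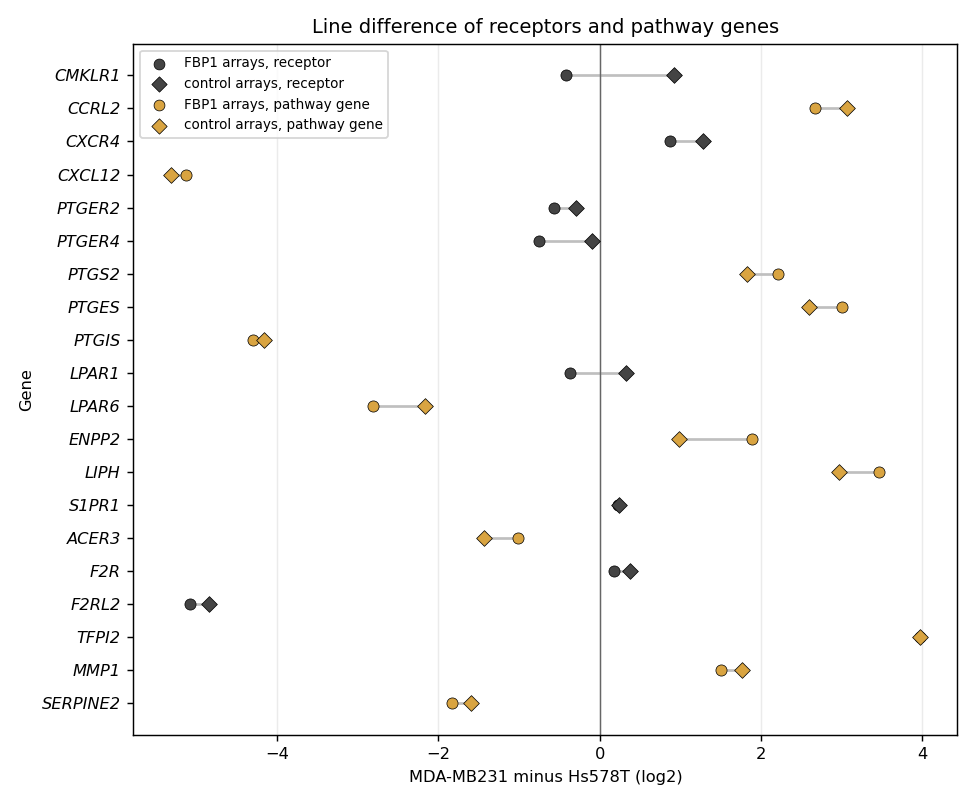
MDA-MB231 minus Hs578T on the log2 scale (horizontal axis) for the 8 receptor genes (dark) and named pathway genes (amber), from the FBP1 arrays (circles) and the control arrays (diamonds); the symbols of TFPI2 and of S1PR1 nearly coincide. F2RL2, CXCL12 and PTGIS lie below −4, TFPI2 lies near 4, and for CMKLR1 and LPAR1 the symbols lie on opposite sides of 0.

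CXCL12, the ligand of CXCR4, differed between the lines in the direction opposite to its receptor. It had 6.42 in MDA-MB231 with FBP1 and 6.30 in the MDA-MB231 control, against 11.56 in Hs578T with FBP1 and 11.62 in the Hs578T control. The line difference was −5.23 (standard error 0.11, limma adjusted p = 4.00e-06). In the chemerin and CXCL12 list 3 of 8 measured genes were called higher and 1 lower in MDA-MB231. CCRL2, which binds chemerin and presents it to CMKLR1, was higher in MDA-MB231 by 2.87 (standard error 0.13, limma adjusted p = 3.20e-05), and DPP4, a peptidase that inactivates CXCL12, by 1.16 (0.13, limma adjusted p = 0.000972). In Hs578T with FBP1 and control, CCRL2 had 5.80 and 5.37, and DPP4 had 5.56 and 6.13. All these Hs578T values lie under the filter limit of 6.16 for dim genes, so the size of either difference is uncertain. RARRES2, the chemerin gene, named here outside the rule after its values were seen, was not called, at 7.70 in MDA-MB231 with FBP1 and 7.81 in the MDA-MB231 control, against 7.82 in Hs578T with FBP1 and 7.71 in the Hs578T control. With FBP1 0 of the 8 changed by 1.5-fold in either line.

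Of 21 measured prostanoid genes 5 were called higher and 5 lower in MDA-MB231, and 11 were not called, PTGS1, PTGES2, PTGDS and TBXAS1 among them. PTGS2, the inducible cyclooxygenase, had 10.66 in MDA-MB231 with FBP1 and 10.66 in the MDA-MB231 control, against 8.44 in Hs578T with FBP1 and 8.84 in the Hs578T control (limma adjusted p = 0.000117). PTGES, the terminal prostaglandin E synthase, was higher in MDA-MB231 by 2.80 (standard error 0.12, limma adjusted p = 2.84e-05). The prostacyclin synthase PTGIS ran the other way, by −4.23 (0.11, limma adjusted p = 5.19e-06), as did PTGFR, the receptor of prostaglandin F, by −1.49 (0.10, limma adjusted p = 0.000163). With FBP1, PLA2G4A, the phospholipase that releases arachidonic acid, was 6.997 in MDA-MB231, against 7.37 in its control, and 9.23 in Hs578T, against 8.02 in its control. AKR1C3, which reduces prostaglandins and steroids and has near-identical relatives that make its values uncertain, was 8.84 in MDA-MB231 with FBP1, against 8.79 in its control, and 9.33 in Hs578T with FBP1, against 10.26 in its control. The change with FBP1 in Hs578T was thus 1.21 for PLA2G4A and −0.93 for AKR1C3, and neither reached 1.5-fold in MDA-MB231.

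In the list on lysophosphatidic acid, 2 of 13 measured genes were called higher and 4 lower in MDA-MB231. ENPP2, or autotaxin, which makes the ligand, had 9.83 in MDA-MB231 with FBP1, against 9.54 in the MDA-MB231 control, and 7.94 in Hs578T with FBP1, against 8.56 in the Hs578T control. It was higher in MDA-MB231 by 1.43 (standard error 0.21, limma adjusted p = 0.0032), and its change with FBP1 in Hs578T was −0.62, where that of LPAR1 was 0.73. The lipase LIPH, another source of the ligand, was higher in MDA-MB231 by 3.22 (0.14, limma adjusted p = 2.98e-05). PLPP1, a phosphatase that degrades it, was lower in MDA-MB231 (line difference −1.499, limma adjusted p = 0.000122). LPAR6, a more distant receptor of the same lipid, had 4.97 in MDA-MB231 with FBP1, against 5.65 in the MDA-MB231 control, and 7.78 in Hs578T with FBP1, against 7.82 in the Hs578T control. Both MDA-MB231 values lie under that filter limit of 6.16.

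Among 13 measured genes that make, remove or sense sphingosine-1-phosphate, 2 were called higher and 2 lower in MDA-MB231, and 0 changed by 1.5-fold with FBP1 in either line. The ceramidase genes ACER3 and ASAH1 had line differences of −1.22 and −0.65 (limma adjusted p = 0.000851 and 0.00992), and the lyase SGPL1 and the phosphatase SGPP2 of 0.35 and 0.44 (limma adjusted p = 0.0295 and 0.0208). Of 20 measured genes of the thrombin and protease list, 4 were called higher and 2 lower in MDA-MB231, and again 0 changed by 1.5-fold with FBP1. TFPI2, a protease inhibitor of the matrix, had 10.43 in MDA-MB231 with FBP1 and 10.49 in the MDA-MB231 control, against 6.46 in Hs578T with FBP1 and 6.51 in the Hs578T control (limma adjusted p = 5.56e-06). MMP1, a collagenase known to cut the F2R product in breast cancer cells, was higher in MDA-MB231 by 1.63 (standard error 0.12, limma adjusted p = 0.000177). SERPINE2, a cell-surface inhibitor of thrombin, had a line difference of −1.72 (0.10, limma adjusted p = 8.07e-05), and SERPIND1, heparin cofactor, of −0.71 (0.11, limma adjusted p = 0.00411).

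**Figure D4:**
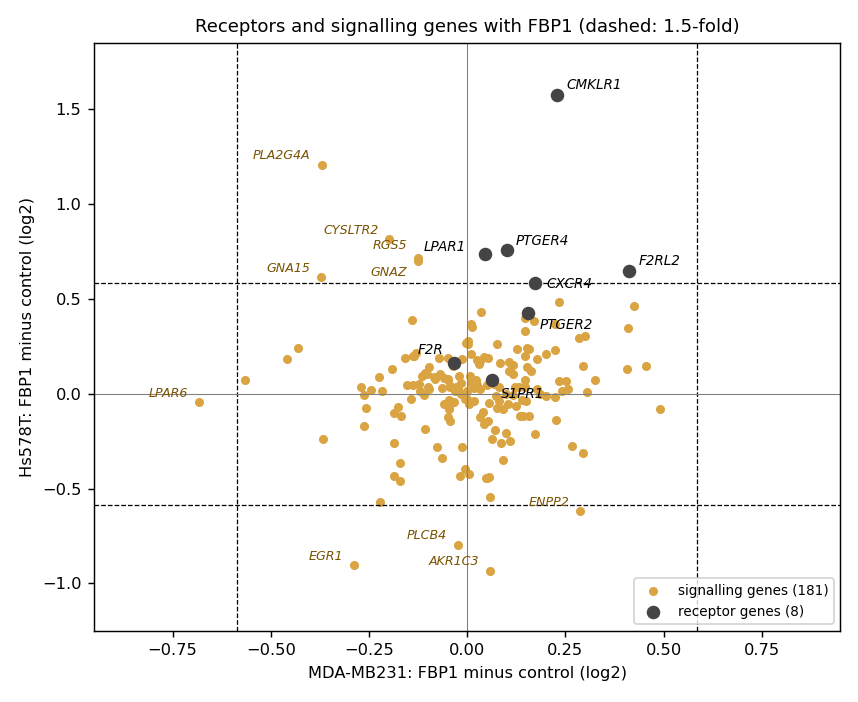
Change with FBP1 on the log2 scale in MDA-MB231 (horizontal axis) and in Hs578T (vertical axis) for the 8 receptor genes (dark) and the 181 measured signalling genes (amber), with dashed lines at 1.5-fold; each point is 1 gene. The receptor genes lie above 0 in Hs578T, and 9 named signalling genes lie beyond 1.5-fold there, 5 above and 4 below.

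Of 35 measured G protein and effector genes, 7 were called higher and 10 lower in MDA-MB231. GNA15, a promiscuous alpha subunit of the Gq class, had 11.05 in MDA-MB231 with FBP1, against 11.42 in the MDA-MB231 control, and 7.72 in Hs578T with FBP1, against 7.11 in the Hs578T control. Its line difference was 3.82 (standard error 0.22, limma adjusted p = 8.73e-05), and with FBP1 it lay 0.61 above control in Hs578T. PIK3CG, a kinase driven by beta-gamma subunits, was higher in MDA-MB231 by 2.75 (0.12, limma adjusted p = 2.53e-05). The phospholipases PLCB1 and PLCB4, which act after Gq, ran the other way, by −3.42 and −2.96 (limma adjusted p = 7.74e-06 and 0.000117). PLCB4 was 5.92 in MDA-MB231 with FBP1, against 5.95 in its control, and 8.50 in Hs578T with FBP1, against 9.30 in its control. GNAZ, an alpha subunit of the inhibitory class, was 8.85 in MDA-MB231 with FBP1, against 8.97 in its control, and 11.13 in Hs578T with FBP1, against 10.43 in its control. These 3 genes were the ones of the list past 1.5-fold with FBP1 in Hs578T, GNA15 and GNAZ higher and PLCB4 lower.

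Among 19 measured genes that switch receptor signalling off, 6 were called higher and 5 lower in MDA-MB231. GRK3, a receptor kinase, was higher by 1.94 (standard error 0.14, limma adjusted p = 0.000175), and RGS4 by 1.33 (0.10, limma adjusted p = 0.000213). ARRB1, a beta-arrestin gene, was lower in MDA-MB231, with a line difference of −1.56 (0.10, limma adjusted p = 0.000113), and the other beta-arrestin gene, ARRB2, was not analysed here. RGS5, which speeds the turn-off of G proteins, had 7.41 in MDA-MB231 with FBP1, against 7.54 in the MDA-MB231 control, and 9.80 in Hs578T with FBP1, against 9.09 in the Hs578T control. It was the single gene of the list past 1.5-fold with FBP1, in Hs578T.

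Of 23 measured transcriptional targets of these receptors, 4 were called higher and 7 lower in MDA-MB231. DUSP6, a feedback phosphatase of ERK signalling, and NR4A2, a cAMP-induced nuclear receptor, were higher by 1.78 and 1.07 (limma adjusted p = 8.37e-05 and 0.00108). The chemokine gene CXCL8 and the matricellular gene CCN2, induced by thrombin and by lysophosphatidic acid in many cells, had line differences of −1.79 and −1.12 (limma adjusted p = 0.000127 and 0.000182). With FBP1, EGR1 was the single target past 1.5-fold, with 9.64 in MDA-MB231, against 9.93 in its control, and 10.30 in Hs578T, against 11.20 in its control. EGR1, an immediate early transcription factor, thus changed by −0.91 in Hs578T, and a link of this change to the receptor genes was not tested. The median change of the 23 targets was 0.003 in MDA-MB231 and 0.02 in Hs578T, beside −0.004 and 0.03 over all genes.

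Markers of cells that carry many of these receptors were followed beside the results. Of 8 measured leukocyte markers 0 changed by 1.5-fold in either line. The log2 of their summed linear values lay between 10.12 and 10.30 on the 4 arrays. The leukocyte marker PTPRC lay between 4.52 and 4.96. For endothelial markers the log2 of the sum was 10.16 in MDA-MB231 with FBP1 and 10.08 in its control. In Hs578T it was 9.78 with FBP1 and 9.70 in control, with 0 of 6 changed by 1.5-fold with FBP1. For the 5 platelet markers the log2 of the sum lay between 9.30 and 9.36, with 0 changed. Of the 7 fibroblast markers 1 changed by 1.5-fold, FAP, at 6.67 in Hs578T with FBP1 against 8.01 in its control. Of the 7 measured basal-like and mesenchymal markers 1 did so, KRT14, at 9.62 in Hs578T with FBP1 against 8.85 in its control. Their part in the receptor changes of Hs578T was not tested.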

How the data were processed

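Total RNA of 4 cell cultures was measured on 4 Affymetrix arrays, 1 for each line and construct. The authors deposited log2 expression values of 33297 probe sets, which ran from 2.40 to 14.81, a scale inferred from that range. The software was Affymetrix Expression Console 1.1.2800.28061, per the submitters' processing notes, and the normalization method was not given in the sources used here. Groups follow the line and construct in the labels.

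Through the platform annotation 19460 probe sets had a single gene, 1754 several and 12083 none. The probe set with the highest mean stood for each of 18417 genes, with no intensity filter. Line and construct were fitted together with limma 3.58.1 in R 4.3.3 (variance prior with intensity trend, 1 residual and 5.09 prior degrees of freedom), adjusted by Benjamini-Hochberg over all genes. On simulated data of 18417 genes the fit recovered 96% of line differences of 0.5, 90% of FBP1 changes of 0.5 and 100% of changes of 1 or more, with equal changes in both lines. The simulated noise was additive and normal, with the variances that the fit itself had estimated. These shares check that the fit runs correctly and do not show how large a change it can detect in the real arrays. Sequences are from RefSeq, GRCh38.p14.

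The receptor genes and signalling lists were chosen with earlier results of these data known. Named were all receptor genes, list genes past 1.5-fold with FBP1 in either line, the 2 largest called line differences each way per list, and the 3 genes nearest in pattern to the 4 receptors of widest range. IQGAP2, RARRES2, CRHBP, S100Z, AGGF1, SV2C, POC5, PTGS1, PTGES2, PTGDS, TBXAS1 and the markers named lie outside that rule. Alternatives covered a filter on dim genes, quantile and median scaling, averaging of probe sets, the prior, the line term and the size limits.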

Additional observations from a re-analysis of the deposited data

Results flagged for a closer look

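Among the genes named by the rule, those whose values moved in opposite directions with FBP1 in the lines are given here. They were 1 of the 8 receptor genes, 20 of the 40 named signalling genes and 1 of the 12 genes of like pattern. The share of all genes with opposite directions was not counted, so whether 20 of 40 is many cannot be said. Of all 18417 genes, 48.6% lay above control in MDA-MB231, against 55.8% for Hs578T. The 8 were picked on these changes and the 12 for their likeness to receptor genes, so both low counts reflect the choice. With 1 array per group, no difference in direction was tested, and many of the changes are small. Differences below are the change in Hs578T minus the change in MDA-MB231, on the log2 scale.

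F2R changed by 0.16 in Hs578T and −0.03 in MDA-MB231, a difference of 0.20. KCNK2, whose values resembled those of CMKLR1, changed by 1.39 in Hs578T and −0.23 in MDA-MB231, a difference of 1.62. PLA2G4A changed by 1.21 in Hs578T and −0.37 in MDA-MB231, a difference of 1.58. For CYSLTR2, a leukotriene receptor that was dim on all 4 arrays, the changes were 0.81 and −0.20, a difference of 1.01. GNA15 (0.61 and −0.37), RGS5 (0.71 and −0.13) and GNAZ (0.70 and −0.13) differed by 0.98, 0.84 and 0.82. AKR1C3 (−0.93 in Hs578T and 0.06 in MDA-MB231) and ENPP2 (−0.62 and 0.29) moved the other way, with differences of −0.99 and −0.91.

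The other signalling genes were under 1.5-fold with FBP1 in both lines. SERPINE2 and PLCB1 were above control in Hs578T and below it in MDA-MB231, with differences of 0.23 and 0.12. The remaining 11 were below control in Hs578T and above it in MDA-MB231. Their differences were −0.61 for FPR3, −0.50 for LIPH, −0.49 for ASAH1, −0.44 for GRK3, −0.43 for ACER3, −0.38 for FPR1, −0.28 for PIK3CG, −0.19 for CXCL12, −0.19 for SGPL1, −0.19 for ARRB1 and −0.14 for CCR1.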

How the results depend on the processing

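All 96 values of the 8 receptor genes recomputed with a filter on dim genes, quantile scaling, median centring or averaged probe sets kept their sign, and the largest shift was 0.02 on the log2 scale. The filter and the averaging could not move these values, because all 8 genes passed the filter and 0 had several probe sets. Only quantile scaling and median centring could move them. The count of receptor genes at least 1.5-fold higher with FBP1 in Hs578T was 4 under quantile scaling and median centring and 1 at a 2-fold limit. Under the filter and the averaging it was 4 by construction. The count at least 2-fold higher in MDA-MB231 was 1, but 0 on the FBP1 arrays alone and 0 at a 4-fold limit. The limma counts between the lines stayed within 1.5 times of those given, and 0 genes were called for FBP1 under each alternative, also without the cell line term. The fit for FBP1 was paired by cell line; the labels give no replicate numbers to pair by, and with 1 array per group no array could be left out. Signal over background limits S1PR1, CXCR4 in Hs578T, F2RL2 in MDA-MB231 and CMKLR1 in the Hs578T control (6.76), whose values lay near the 25th percentile of probe set means (6.16).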

Other observations

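Of 29 other chemoattractant receptors measured, limma called 3 higher and 3 lower in MDA-MB231 at an adjusted p of 0.05, against 19.0% and 16.9% of all genes. FPR1, a formyl peptide receptor of phagocytes, had 9.15 in MDA-MB231 with FBP1 and 8.97 in the MDA-MB231 control, against 6.80 in Hs578T with FBP1 and 7.01 in the Hs578T control (limma adjusted p = 9.39e-05). Of 8 measured leukocyte markers 0 were 2-fold apart. CD14, LYZ and CD79A ran the same way as FPR1, with line differences of 0.72, 0.62 and 0.05. LYZ lay under 6.16 in the MDA-MB231 control and on both Hs578T arrays. ITGAM, CD3E, PTPRC, SPI1 and NKG7 ran the other way, by −0.16, −0.16, −0.11, −0.10 and −0.08. The part of these markers in the FPR1 difference was not tested. The chemokine receptor genes CCR1 and CCR4 had line differences of 0.54 and −0.45 (limma adjusted p = 0.0103 and 0.0277), and FPR3 of −0.55 (limma adjusted p = 0.041). With FBP1, CYSLTR2 was the single gene of this list past 1.5-fold, with 4.65 in MDA-MB231, against 4.85 in its control, and 5.24 in Hs578T, against 4.42 in its control, all under the filter limit of 6.16 for dim genes.

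Next to the thrombin receptor genes on chromosome 5, CRHBP had 6.49 in MDA-MB231 with FBP1, against 6.26 in its control, and 7.29 in Hs578T with FBP1, against 6.76 in its control. S100Z had 6.06 and 5.92 in MDA-MB231 with FBP1 and control, against 6.25 and 5.76 in Hs578T with FBP1 and control. Neither gene, both looked up after the F2RL2 values were seen, reached 1.5-fold with FBP1 in either line.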
